A study of Homo sapiens with 24 samples.

Results

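RNA-seq libraries of untreated ID3-KO and WT AID-DIvA cells were compared, 3 libraries of each genotype, out of 24 libraries in the series. The study asked how loss of ID3 alters the response of U2OS cells to mocetinostat, an inhibitor of class I histone deacetylases, and it sequenced untreated and treated cells of both genotypes. AID-DIvA cells are U2OS osteosarcoma cells that carry AsiSI, a restriction enzyme whose activity can be induced to cut the genome, and both genotypes compared here carry it. The 6 libraries were chosen by sample title, which names them as untreated, because the treatment field of the labels names the opposite treatment from the title, the description and the file for every AID-DIvA library. None of the 6 had received mocetinostat by title. Further libraries of both genotypes, 3 of each, are set beside them. These are untreated libraries labelled U2OS, and AID-DIvA libraries of cells given mocetinostat and then left to recover in medium without it. The latter are called treated and recovered. The labels and the methods do not say how the knockout was made, or whether the ID3-KO cells are 1 clone, so loss of ID3 and any other difference between the KO and the WT cells as lines cannot be told apart. The series and the study's methods describe the replicates as biological.

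ID proteins are helix-loop-helix proteins without a DNA-binding region. They pair with E proteins (TCF3, TCF4 and TCF12) and with other basic helix-loop-helix (bHLH) factors and keep them off the E-box, a short DNA motif spelled CANNTG. ID genes are textbook targets of BMP signalling, and ID proteins are known for holding back differentiation and for promoting passage through the cell cycle in many lineages, bone and muscle among them.

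The 6 libraries held between 50919711 and 76906266 counted fragments. Pairs of replicates differed by 3.7 to 27.4 chi-square units per gene, more than the value near 1 that sampling noise gives, so no library was a copy of another. The first principal component took 83.6% of the variance and separated the genotypes. Mesenchymal and osteosarcoma line markers summed to between 4307 and 4531 CPM (counts scaled to a common library size) in WT and between 4870 and 5217 CPM in KO libraries, whereas epithelial markers summed to between 18.6 and 19.2 CPM and between 20.1 and 23.3 CPM. Of the defining markers of other cells, CD3E and SPI1 of blood cells and CDH5, KDR, TIE1 and EMCN of endothelium were too low to be tested, as were KRT19, CLDN3, GRHL2, ELF3 and OVOL1 of epithelium and, among the mesenchymal markers, TWIST1. Of 12 blood cell markers 9 were tested, of which 1 rose and 3 fell, 2 of them called lower. Of 7 endothelial markers 3 were tested, of which 1 rose and 1 fell. Blood cell markers summed to between 6.85 and 7.55 CPM in WT and between 4.85 and 5.64 CPM in KO. Endothelial markers summed to between 10.3 and 11.2 CPM and between 9.42 and 9.49 CPM. Their part in the differences was not tested. In bulk RNA, fewer cells of a type and less RNA per cell cannot be told apart.

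Promoters of 7 genes with large differences described below, and of ID3 itself, are printed so that their E-boxes can be read. Each is the RefSeq promoter of GRCh38.p14, from 250 bases before to 50 bases after the start of the gene, written 5′ to 3′ on the strand of the gene. Capitals mark every CANNTG. The ID3 promoter (chr1:23559452-23559751, minus strand) held none in these 300 bases. IGFBP4 (chr17:40443200-40443499, plus strand) and RTP3 (chr3:46497726-46498025, plus strand) were among the genes with the largest rises, as was MAGEB1 (chrX:30243481-30243780, plus strand). TBX4 (chr17:61456238-61456537, plus strand), RUNX3 (chr1:24964961-24965260, minus strand) and LCP1 (chr13:46182128-46182427, minus strand) were among those that fell, as was HEYL (chr1:39639594-39639893, minus strand), whose promoter held no CANNTG either.
ID3: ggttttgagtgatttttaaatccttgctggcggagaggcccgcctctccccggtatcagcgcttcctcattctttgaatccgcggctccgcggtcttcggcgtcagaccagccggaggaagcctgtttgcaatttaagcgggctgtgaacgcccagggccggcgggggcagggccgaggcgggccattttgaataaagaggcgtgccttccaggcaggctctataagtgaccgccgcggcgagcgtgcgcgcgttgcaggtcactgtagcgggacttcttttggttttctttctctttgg
IGFBP4: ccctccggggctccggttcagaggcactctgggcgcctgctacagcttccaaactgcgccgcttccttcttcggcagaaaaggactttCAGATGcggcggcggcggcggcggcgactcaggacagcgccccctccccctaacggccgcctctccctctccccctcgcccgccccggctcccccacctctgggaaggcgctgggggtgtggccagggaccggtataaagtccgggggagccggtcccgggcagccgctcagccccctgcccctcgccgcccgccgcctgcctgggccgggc
MAGEB1: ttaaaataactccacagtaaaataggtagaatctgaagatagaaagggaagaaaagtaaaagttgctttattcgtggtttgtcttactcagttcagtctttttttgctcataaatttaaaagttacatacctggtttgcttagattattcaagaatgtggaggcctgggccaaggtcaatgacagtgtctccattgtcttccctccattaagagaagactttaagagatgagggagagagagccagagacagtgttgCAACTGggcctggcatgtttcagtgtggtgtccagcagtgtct
RTP3: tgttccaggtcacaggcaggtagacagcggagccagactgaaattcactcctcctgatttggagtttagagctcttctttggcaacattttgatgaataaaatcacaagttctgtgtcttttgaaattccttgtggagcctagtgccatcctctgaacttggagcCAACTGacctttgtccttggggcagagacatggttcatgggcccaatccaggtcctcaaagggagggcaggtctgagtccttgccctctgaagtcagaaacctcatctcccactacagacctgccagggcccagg
TBX4: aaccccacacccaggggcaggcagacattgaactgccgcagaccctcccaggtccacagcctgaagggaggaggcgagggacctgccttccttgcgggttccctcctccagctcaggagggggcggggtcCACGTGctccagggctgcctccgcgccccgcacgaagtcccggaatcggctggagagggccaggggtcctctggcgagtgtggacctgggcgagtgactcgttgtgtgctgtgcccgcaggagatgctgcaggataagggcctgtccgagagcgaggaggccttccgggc
HEYL: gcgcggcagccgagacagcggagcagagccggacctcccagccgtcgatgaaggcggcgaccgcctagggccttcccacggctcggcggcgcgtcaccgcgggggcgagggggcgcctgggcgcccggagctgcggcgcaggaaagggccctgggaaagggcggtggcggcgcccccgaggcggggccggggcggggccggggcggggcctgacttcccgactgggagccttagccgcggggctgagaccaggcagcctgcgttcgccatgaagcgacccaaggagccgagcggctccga
RUNX3: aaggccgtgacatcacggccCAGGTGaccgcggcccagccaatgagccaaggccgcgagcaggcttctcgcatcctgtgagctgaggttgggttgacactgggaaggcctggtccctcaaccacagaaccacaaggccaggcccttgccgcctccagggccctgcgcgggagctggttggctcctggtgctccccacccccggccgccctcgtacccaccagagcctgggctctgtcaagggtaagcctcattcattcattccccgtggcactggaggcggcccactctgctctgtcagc
LCP1: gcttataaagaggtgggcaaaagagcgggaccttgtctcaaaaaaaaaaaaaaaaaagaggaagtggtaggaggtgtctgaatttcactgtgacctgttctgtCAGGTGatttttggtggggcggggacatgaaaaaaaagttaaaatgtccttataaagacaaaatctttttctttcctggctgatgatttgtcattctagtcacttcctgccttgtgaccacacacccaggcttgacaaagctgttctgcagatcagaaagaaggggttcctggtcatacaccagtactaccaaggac

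The printed E-boxes differ in their inner bases. RUNX3 and LCP1 hold CAGGTG, a form that E protein pairs are known to bind, at 230 and 147 bases before the start of the gene (positions -230 and -147). IGFBP4 holds CAGATG at -162, RTP3 CAACTG at -85 and TBX4 CACGTG at -120. MAGEB1 holds CAACTG after the start of the gene, at position 7. On both strands together, 61.2% of the 13078 promoters of tested genes held a CANNTG, against 61.6% of 237 promoters of genes called higher in KO and 70.3% of 259 promoters of genes called lower. CAGCTG or CAGGTG stood in 32.3%, 35.9% and 34.7% of the same promoters. Fewer than 80% of the genes of each set had a promoter sequence, so the comparison between these sets is void and the shares are descriptions.

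ID3 RNA was lower in KO than in WT cells but was not lost. ID3 (ENSG00000117318.8, chr1:23884409-23886285 in hg19, the build of the deposited files) had 2371, 2994 and 3284 counts in the WT libraries and 1941, 2344 and 2057 counts in the KO libraries. These are 47.0, 50.1 and 50.4 CPM in WT and 31.7, 30.6 and 37.8 CPM in KO libraries, and the groups did not overlap. The level in KO was 0.677 of that in WT (log2 difference -0.56, SE 0.07, edgeR adjusted p = 8.38e-06). A count over the whole gene does not show where the gene was altered, nor the amount of protein. For the protein, the paper reports that its knockouts were checked by Western blot, both in AID-DIvA and in U2OS. Those blots were not analysed here. The 20 tested neighbours of ID3, from KDM1A to MYOM3, had a median log2 difference of -0.05, and 3 of them rose and 6 fell.

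Among the other ID genes, ID2 fell and ID1 and ID4 did not pass the test. ID2 stood at 7.55, 8.47 and 8.05 CPM in WT and 6.49, 6.08 and 7.07 CPM in KO libraries (log2 difference -0.30, SE 0.08, edgeR adjusted p = 0.00675). ID1 lay between 188 and 200 CPM in WT and between 183 and 230 CPM in KO libraries, so that the groups overlapped (log2 difference 0.07, edgeR adjusted p = 0.49). ID4 had a log2 difference of -0.01 (edgeR adjusted p = 0.927). Per kilobase of exon, ID1 was the most abundant ID transcript in both genotypes, at 157 CPM in WT and 164 CPM in KO, ahead of ID3 at 27.4 and 18.6 CPM, ID2 at 3.64 and 2.97 CPM and ID4 at 2.24 and 2.23 CPM.

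None of the 3 E protein genes passed the test. TCF3, which encodes E12 and E47, had a log2 difference of -0.05 (edgeR adjusted p = 0.576), TCF4 one of -0.12 (edgeR adjusted p = 0.0589) and TCF12 one of 0.08 (edgeR adjusted p = 0.204). Without KO replicate 3, TCF3 passed, at -0.15. Per kilobase of exon TCF3 was the highest of them, at 35.5 CPM in WT and 34.3 CPM in KO. Of 16 tested tissue bHLH factors, the class of partners that E proteins take, 2 rose and 1 fell. TAL1, a factor of blood stem cells, fell from 6.04, 6.53 and 6.96 CPM to 3.87, 3.62 and 4.33 CPM (log2 difference -0.73, SE 0.09). TWIST2, a mesenchymal factor, rose by 0.42 (edgeR adjusted p = 0.0246). Of 7 tested HES and HEY factors, bHLH repressors downstream of Notch and other signals, HES6 and BHLHE40 rose and HEYL, BHLHE41 and HEY1 fell. BHLHE40 (log2 difference 0.17, edgeR adjusted p = 0.0415) did not pass with upper-quartile factors, with all 4 AID-DIvA groups in one fit, or without WT replicate 2 or 3 or KO replicate 1 or 3, where its edgeR adjusted p lay between 0.0697 and 0.284, nor in a test against a fold of 1.5. In treated and recovered cells BHLHE40 stood at -0.13.

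**Figure D1:**
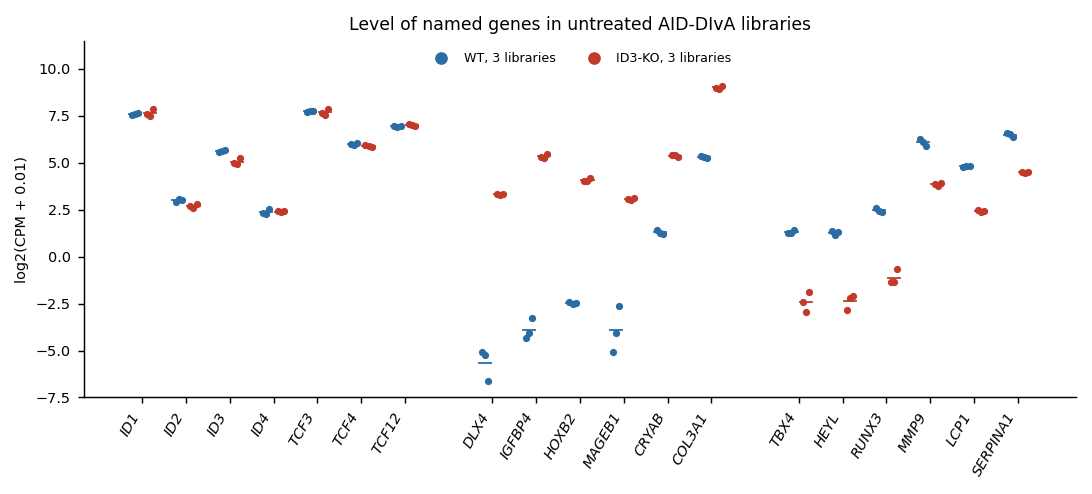
Level of each gene in the 6 untreated AID-DIvA libraries, as log2 of CPM plus 0.01 on the vertical axis; points are libraries, 3 per genotype, and bars are their means. ID3 fell in all 3 KO libraries, E protein genes lay close together in both genotypes, DLX4 and IGFBP4 were near 0 CPM in WT, and TBX4, HEYL and RUNX3 were below 1 CPM in KO.

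Across the genome, 465 genes were called higher in KO (2.27% of 20441 tested) and 471 were called lower (2.3%), at an adjusted p below 0.05 with a log2 difference above 1 or below -1. By adjusted p alone 3793 genes rose (18.6%) and 3709 fell (18.1%), and the median log2 difference over all tested genes was 0.000872. The values of KO and WT libraries did not overlap for 460 of the genes called higher and 469 of those called lower. Over all tested genes, 4881 did not overlap with KO higher and 4848 with KO lower. Calls were more frequent at low levels: 10.1% of genes with a mean below 1 CPM were called, against 2.61% of the 15047 genes at or above it. Of the called genes at or above 1 CPM, 207 were higher and 186 lower. The libraries that the treatment field calls untreated, which the titles call treated and recovered, gave 503 and 454 calls, 260 and 216 of them the same genes. A log2 difference beyond 4 was reached by 25 genes called higher and 8 called lower.

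The largest rises were in genes that WT cells hardly transcribed. DLX4, a distal-less homeobox factor (ENSG00000108813.9, chr17:48046334-48052321), had 1, 1 and 0 counts in WT and 613, 735 and 558 counts in KO libraries, which is a ratio of 869 with a 95% counting interval (exact, conditional binomial) from 240 to 7185 that covers counting error only. With genes that carry only a clone-type or numbered LINC name left out, it was the only gene with at least 1 CPM in every library of one genotype and at most 0.05 CPM in every library of the other. IGFBP4, which binds insulin-like growth factors (ENSG00000141753.5, chr17:38599702-38613983), rose from 2, 3 and 6 counts to 2419, 2970 and 2445 counts, or from 0.0396, 0.0502 and 0.0921 CPM to 39.5, 38.8 and 44.9 CPM (log2 difference 9.31, SE 0.15, edgeR adjusted p = 6.33e-16). HOXB2, an anterior homeobox gene (ENSG00000173917.9, chr17:46618256-46623441), rose from 9, 10 and 11 counts to 998, 1263 and 997 counts (log2 difference 6.62, SE 0.13). These genes all lie on chromosome 17, and HOXB2 stood out in its own cluster, since its neighbour HOXB3, picked after its value was seen, rose by 0.52 on the log2 scale. Of 35 tested HOX genes 11 rose and 5 fell, with a median log2 difference of 0.0052, and HOXB2 alone was called.

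A pair of cancer-testis genes, whose transcription is normally limited to the germ line, rose with them. MAGEB1 went from 1, 3 and 10 counts to 521, 617 and 475 counts (log2 difference 6.69, SE 0.21), and CTAG2 from 0.0594, 0.067 and 0.0307 CPM to between 2.6 and 3.64 CPM (log2 difference 5.86, SE 0.27). Both belong to families of similar copies whose reads can be shared, so their own values are uncertain. Of all 23 tested members, these included, 6 rose and 5 fell, with a median of -0.04. MAGEC3 (log2 difference 2.004) and SPANXN3 (1.81) were also called higher and MAGEB6 (-1.54) lower, all with means below 1 CPM in both genotypes, and these are named after their values were seen. RTP3, a receptor transporter of taste and smell receptors, rose by 5.78 and C1QTNF1, a secreted C1q-like protein, by 5.65 on the log2 scale. C17orf96, a subunit of Polycomb repressive complex 2, rose by 5.04.

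COL3A1, the chain of type III collagen, combined a large rise with a high level. It stood at between 38.4 and 41.3 CPM in WT and at 505, 494 and 552 CPM in KO libraries (log2 difference 3.70, SE 0.05, edgeR adjusted p = 3.89e-16), the smallest adjusted p of all genes. CRYAB, a small heat shock chaperone, rose from 2.67, 2.39 and 2.27 CPM to 42.0, 42.1 and 39.2 CPM (log2 difference 4.08, SE 0.07). CADM1, an adhesion molecule of the immunoglobulin family, rose from between 15.9 and 17.3 CPM to between 81.9 and 86.1 CPM (log2 difference 2.35, SE 0.05). In each of these genes the lowest KO library lay far above the highest WT library. SNX18P24, a pseudogene, and PCDHGB4, which shares its 3′ exons with other protocadherins of its cluster, rose by 5.03 and 3.62, and reads of copies or of shared exons make both uncertain.

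The genes that fell most included developmental transcription factors. TBX4, a T-box factor of the hindlimb (chr17:59529765-59562471), fell from 2.38, 2.41 and 2.66 CPM to 0.180, 0.118 and 0.257 CPM (log2 difference -3.79, SE 0.20, edgeR adjusted p = 7.82e-10). HEYL, a Notch-responsive bHLH repressor (chr1:40089825-40105617), fell from between 2.18 and 2.6 CPM to 0.131, 0.209 and 0.220 CPM (log2 difference -3.68, SE 0.19). RUNX3, a Runt factor (chr1:25226002-25291612), fell from 6.02, 5.29 and 5.21 CPM to 0.376, 0.379 and 0.625 CPM (log2 difference -3.61, SE 0.15). Its relative RUNX2, the master factor of osteoblasts, fell by 0.84 on the log2 scale, from between 29.7 and 32.8 CPM to between 16.5 and 18.7 CPM. AFAP1-AS1, an antisense transcript, fell by 4.32, the largest fall of the named genes, and fell by 4.65 when only counts of the reverse strand were used.

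Other named falls were in genes with higher WT levels. LCP1, the actin-bundling plastin of blood cells, dropped from 27.3, 28.9 and 28.7 CPM to 5.50, 5.24 and 5.33 CPM (log2 difference -2.4, SE 0.06, edgeR adjusted p = 2.19e-13). SERPINA1, an inhibitor of neutrophil elastase, dropped from 95.1, 91.1 and 82.6 CPM to between 21.9 and 23.03 CPM (log2 difference -1.99, SE 0.06). C6orf15 fell by 2.62 and DYSF, a protein of membrane repair, by 1.79. CAV1, the scaffold of caveolae, fell from between 659 and 718 CPM to between 293 and 323 CPM (log2 difference -1.16, SE 0.05).

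Many of the differences lay side by side along the chromosomes. When the 15047 genes with a mean of at least 1 CPM were put in the order of their hg19 coordinates and divided into 362 windows of about 40 genes, the median absolute window value was 0.0388 on the log2 scale, and 37 windows lay beyond 0.25, 19 of them above and 18 below. All 37 had the same sign in untreated U2OS cells and in treated and recovered AID-DIvA cells, both measured in other libraries. Of the 325 remaining windows, 248 (76.3%) had the same sign in U2OS. Since the windows were looked at after the differences were known, these values carry no test.

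**Figure D2:**
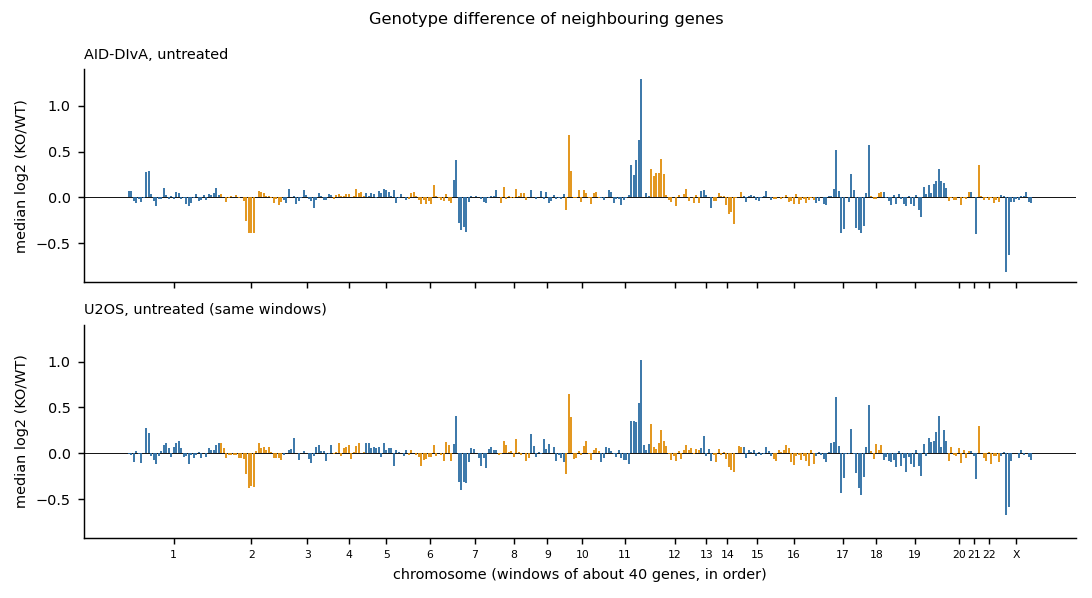
Median log2 difference (KO over WT) in windows of about 40 neighbouring genes, in chromosome order on the horizontal axis and coloured by chromosome, for untreated AID-DIvA libraries above and for untreated U2OS libraries below. Most windows lie close to 0, and the 37 windows beyond 0.25 in AID-DIvA point the same way in U2OS.

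Stretches were then drawn as runs of at least 15 genes in which the running median over 11 genes stayed beyond 0.3 in either direction. There were 30 stretches, 13 higher and 17 lower in KO, on chromosomes 2, 7, 10, 11, 12, 14, 17, 19, 21, 22 and X. They held 1043 genes, 6.93% of those considered, but 85 of the 207 genes called higher (41.1%) and 41 of the 186 genes called lower (22.04%). The median absolute log2 difference was 0.483 inside the stretches and 0.138 outside. The stretches were chosen on these values, so the shares describe where the calls lie. Outside them, 122 genes were called higher and 145 lower.

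The longest stretch lay on the long arm of chromosome 11 (chr11:78902603-115375675), from RP11-802F5.1 to CADM1. Of its 111 genes 107 were higher in KO, 102 at an adjusted p below 0.05, and 50 were called. The median difference against the mean of WT was 0.81, 0.82 and 0.75 on the log2 scale in the KO libraries, and between -0.02 and 0.02 in the WT libraries. The stretch was not level, and it was split at ARHGAP42, a point chosen after its values were seen. The 51 genes up to JRKL had a median log2 difference of 0.56. The 60 genes from ARHGAP42 on (chr11:100558384-115375675) had one of 1.37, a 2.58-fold level, with 59 of them higher and 46 called. The split is not a clean step, since MAML2, CCDC82 and JRKL before it rose by 1.03, 1.48 and 1.27, and SIK2 after it by 0.91. The 10 genes before the stretch had a median of 0.33, and TENM4, the last of them, rose by 1.03. The rise therefore did not begin at the first gene of the stretch. The next 10 genes beyond CADM1 had a median of -0.06. In U2OS the 60 genes had a median of 1.19, 57 of them with the same sign, and in treated AID-DIvA cells 1.29. Chromosome 11 holds 5.52% of the genes considered and 28.5% of the genes called higher.

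The chromosome 11 stretch contains several genes already named. CRYAB, CADM1, NCAM1 (a neural adhesion molecule, log2 difference 1.37), IL18 (an interleukin of the inflammasome, 1.12) and MMP3 (stromelysin, 1.44, but -0.17 in treated and recovered cells) lie in it. So do ATM, the kinase that signals double-strand breaks, and USP28, a deubiquitinase that binds 53BP1. ATM (chr11:108093211-108239829) rose from 28.5, 28.3 and 28.1 CPM to 82.9, 82.3 and 74.7 CPM (log2 difference 1.5, SE 0.05, edgeR adjusted p = 5.17e-12), and USP28 (chr11:113668596-113746292) from 45.3, 42.9 and 42.7 CPM to 128, 127 and 119 CPM (log2 difference 1.52, SE 0.05). Both rises lay close to the 1.37 of their 60 neighbours, whereas those of CRYAB and CADM1 were larger. Another stretch of chromosome 11 (chr11:68028803-71823826, 29 genes, all higher, median 0.45) holds CCND1, the D-type cyclin of the G1 phase. CCND1 rose from between 106 and 114 CPM to between 221 and 236 CPM (log2 difference 1.07). The 10 genes after this stretch had a median of 0.42, so its end does not mark a return to 0.

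On the X chromosome, the genes from SRPX to WDR13 (chrX:38008589-48463581) fell together. Of 47 genes 46 were lower in KO, the same number passed the test, and 21 were called. The median log2 difference was -0.98, a level of 0.507 of that in WT, and the quartiles were -1.11 and -0.82. The 10 genes before had a median of 0.09 and the 10 after one of -0.12, although SYTL5, next to SRPX and outside the stretch, fell by 0.82. U2OS cells gave -0.96 over the same genes, with 46 of 47 in the same direction, and treated AID-DIvA cells gave -0.96. TIMP1, an inhibitor of matrix metalloproteinases (chrX:47441712-47446188), is among them and fell from between 277 and 287 CPM to between 109 and 123 CPM (log2 difference -1.29, SE 0.05). SRPX, a sushi-repeat protein, fell by 1.55. Chromosome X holds 3.63% of the genes considered and 14.5% of the genes called lower.

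**Figure D3:**
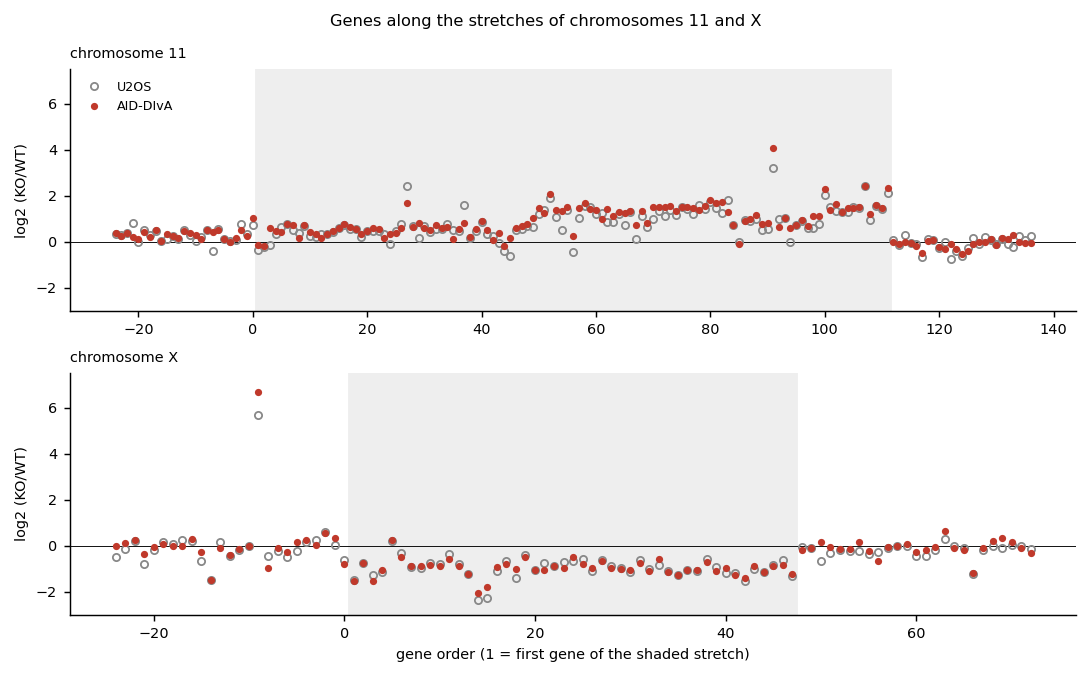
Log2 difference (KO over WT) of single genes along chromosomes 11 and X, by gene order on the horizontal axis with the stretch shaded; filled points are untreated AID-DIvA and open circles untreated U2OS. On chromosome 11 107 of the 111 genes of the stretch lie above 0, and its last 60 genes have a higher median than the rest, and on chromosome X 46 of the 47 genes of the stretch lie below 0.

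On the short arm of chromosome 10 a lower and a higher stretch adjoined. The 22 genes from AKR1E2 to CELF2 (chr10:4828821-11378674) had a median log2 difference of -0.58, and the 72 genes from ECHDC3 to PTCHD3P1 (chr10:11784365-29776674) one of 0.65. VIM, the intermediate filament of mesenchymal cells, lies in the second and rose from between 534 and 538 CPM to between 812 and 902 CPM (log2 difference 0.68). Chromosome 17 alternated, with 3 higher stretches of medians between 0.42 and 0.53 and 5 lower ones of medians between -0.46 and -0.40. IGFBP4 rose although it lies in a lower stretch, from TCAP to EIF1, whose 31 genes had a median of -0.41. NOG, a secreted antagonist of BMPs, lies in a higher stretch of median 0.42 and rose by 1.36. In every one of the 30 stretches the U2OS median had the same sign, with sizes between 0.18 and 0.96. No DNA measurement of these lines was analysed here.

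Genes of double-strand break repair were examined because the study concerns breaks. Of 85 tested genes 19 rose and 13 fell, with a median log2 difference of 0.02, and ATM and USP28 were the only ones called. Over all tested genes 18.6% rose and 18.1% fell, the shares to set beside this count and those of the other lists. The list splits into 41 genes of homologous recombination (11 rose, 3 fell), 17 of end joining (4 rose, 6 fell) and 27 of sensing and signalling (4 rose, 4 fell). Of the 85 genes 12 lie in stretches, and 8 of those rose and 3 fell. Besides ATM and USP28, the risers included RPA3, a subunit of the single-strand binding protein RPA (log2 difference 0.79), DCLRE1C, the end-joining nuclease Artemis (0.61), the resection nuclease MRE11A (0.55), the ligase LIG3 (0.49) and the helicase RECQL (0.42). These 5 are named for their position and were picked after their values were seen. Outside the stretches 11 of 73 rose, 10 fell, and none was called. BRCA1 (log2 difference -0.06, edgeR adjusted p = 0.403) and BRCA2 (0.11, edgeR adjusted p = 0.22) did not pass the test.

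Of the class I deacetylases, HDAC1 and HDAC2 rose and HDAC3 fell, none of them past the fold threshold. HDAC1 went from 154, 162 and 162 CPM to 202, 204 and 203 CPM (log2 difference 0.35, SE 0.04), and HDAC2 from between 142 and 145 CPM to between 166 and 188 CPM (log2 difference 0.30, SE 0.05). HDAC3 went from between 58.4 and 60.2 CPM to between 51.7 and 53.8 CPM (log2 difference -0.18, SE 0.04, edgeR adjusted p = 0.00502). HDAC8 did not pass the test (log2 difference -0.04). In treated and recovered cells HDAC3 stood at 0.016. HDAC1 lies in a window of 41 genes of chromosome 1 whose median was 0.28, outside the stretches. HDAC1, HDAC2 and HDAC8 are named as members of class I and were picked after their values were seen. Whether mocetinostat acts on each of them was not tested. Over all 40 deacetylases, corepressor subunits and acetyltransferases 9 rose, 5 fell and none was called, with a median of 0.00395. KAT2A, the acetyltransferase GCN5, fell by 0.66 and lies in a lower stretch of chromosome 17.

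In the BMP and TGF-beta pathway, which controls the ID genes, 25 of 66 tested members rose and 12 fell, with a median log2 difference of 0.11, and 7 were called higher and 3 lower. Among 22 ligands 6 rose and 4 fell. BMP6 rose from 1.31, 1.88 and 1.30 CPM to 4.48, 3.99 and 4.55 CPM (log2 difference 1.53), while INHBE, an activin subunit of the liver, fell by 1.25. Among 15 receptors and coreceptors 6 rose and 2 fell, and of 6 SMAD transducers 2 rose and 1 fell. Of 23 inhibitors and latency proteins 11 rose and 5 fell. NOG rose from 21.1, 20.5 and 23.2 CPM to 52.2, 50.9 and 63.4 CPM, and LTBP3, which tethers latent TGF-beta, from between 39.8 and 43.5 CPM to between 88.2 and 109 CPM (log2 difference 1.22). SOSTDC1, an antagonist of BMP and WNT, fell by 1.59. Over the whole list in U2OS, 11 of 66 rose and 8 fell, with a median of -0.0004.

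Lineage genes of bone and muscle moved both ways. Of 18 tested osteoblast and bone matrix genes 5 rose and 4 fell. ALPL, the alkaline phosphatase of mineralising bone, fell from 3.29, 3.01 and 2.87 CPM to 0.588, 0.693 and 0.680 CPM (log2 difference -2.21), and SPP1, osteopontin, from between 32.9 and 34.0 CPM to between 17.6 and 18.8 CPM (log2 difference -0.89). POSTN, periostin (log2 difference 2.90), and BGN, the proteoglycan biglycan (1.15), were called higher and COL1A2, a chain of type I collagen (-1.56), was called lower, all with means below 1 CPM in both genotypes, and these are named after their values were seen. MSX2, a homeobox factor of bone, rose by 0.28. Of 28 smooth and striated muscle genes 8 rose and 9 fell. The troponins TNNC1 and TNNT2 rose, TNNC1 from 0.456, 0.686 and 0.553 CPM to 6.58, 5.44 and 7.44 CPM (log2 difference 3.49), whereas the myosin kinase MYLK fell by 0.69 and MEF2C, a factor of muscle and bone, by 1.09.

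Matrix genes differed at high levels and in both directions. Of 36 tested collagens 10 rose and 12 fell, 5 and 3 of them called. Besides COL3A1, the fibrillar chain COL5A1 rose from between 125 and 144 CPM to between 255 and 297 CPM (log2 difference 1.01), while COL6A3 fell from between 86.2 and 97.7 CPM to between 34.6 and 39.6 CPM (log2 difference -1.29) and COL8A1 fell by 1.01. Of 35 matrix proteases and their inhibitors 17 rose and 8 fell, with a median log2 difference of 0.30 (in U2OS 8 of 34 rose and 9 fell, median 0.037). MMP9, gelatinase B, fell from 75.9, 70.1 and 59.7 CPM to 14.6, 13.5 and 15.3 CPM (log2 difference -2.24, SE 0.08, edgeR adjusted p = 3.85e-11). The inhibitors split, TIMP2 rising from between 109 and 111 CPM to between 193 and 196 CPM (log2 difference 0.82) and TIMP1 falling. Of 37 integrins and laminins 12 rose and 9 fell. LAMA4 rose by 2.33 and the leukocyte integrin subunit ITGB2 by 1.22, and ITGAM, its partner, fell by 1.49. ITGA8 had 0 counts in every WT library, so its fitted difference gives no size.

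Markers of epithelium did not move as a group. Of 8 tested, CDH1, KRT5, KRT14 and CLDN7, picked after their values were seen and all with a WT mean below 1 CPM, were called lower, and EPCAM, CLDN4 and ESRP1 rose. SNAI2, a repressor of the epithelial state, fell from 15.1, 15.8 and 15.7 CPM to 6.60, 6.68 and 5.73 CPM (log2 difference -1.29). Of 13 tested mesenchymal markers 4 rose, VIM and COL5A1 among them, and 4 fell.

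Of 62 tested chemokines, interleukins and their receptors 11 rose and 19 fell, and 1 was called higher and 6 lower. CX3CL1, fractalkine, fell from 18.4, 16.9 and 15.6 CPM to 4.49, 3.57 and 4.10 CPM (log2 difference -2.07). IL18 was the member called higher and IL18BP, its binding protein, rose by 0.70, each in a stretch of chromosome 11. Of 40 tested interferon-stimulated genes 8 rose and 10 fell. BST2, tetherin, rose by 2.09, and IFI44 and OASL fell by 1.66 and 1.69. Of 13 tested class I antigen presentation genes 5 rose and 1 fell, TAPBP by 0.42 and HLA-C by 0.32, with HLA reads shared between similar genes, while none of 6 class II genes passed the test.

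Of 43 tested S phase genes 20 rose and 4 fell (median log2 difference 0.10). Of 54 G2/M phase genes 8 rose and 17 fell (median -0.03), and none of either list was called. Outside the stretches 20 of 41 S phase genes rose and 2 fell, and 8 of 50 G2/M phase genes rose and 13 fell. In U2OS 5 S phase genes rose (median 0.19) and 3 G2/M phase genes rose (median 0.07), and none of either list fell. Among 5 CDK inhibitors 4 rose, CDKN1B (p27) from between 39.6 and 44.4 CPM to between 75.4 and 86.2 CPM (log2 difference 0.94), in a higher stretch of chromosome 12. Among 12 cyclins and CDKs 5 rose and 3 fell, and CCND1, described above, was the member called, with a log2 difference of 1.07. Of 28 p53 target genes 6 rose and 6 fell, PMAIP1 (NOXA) by 0.46 upwards and FDXR by 0.44 downwards, and none was called.

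**Figure D4:**
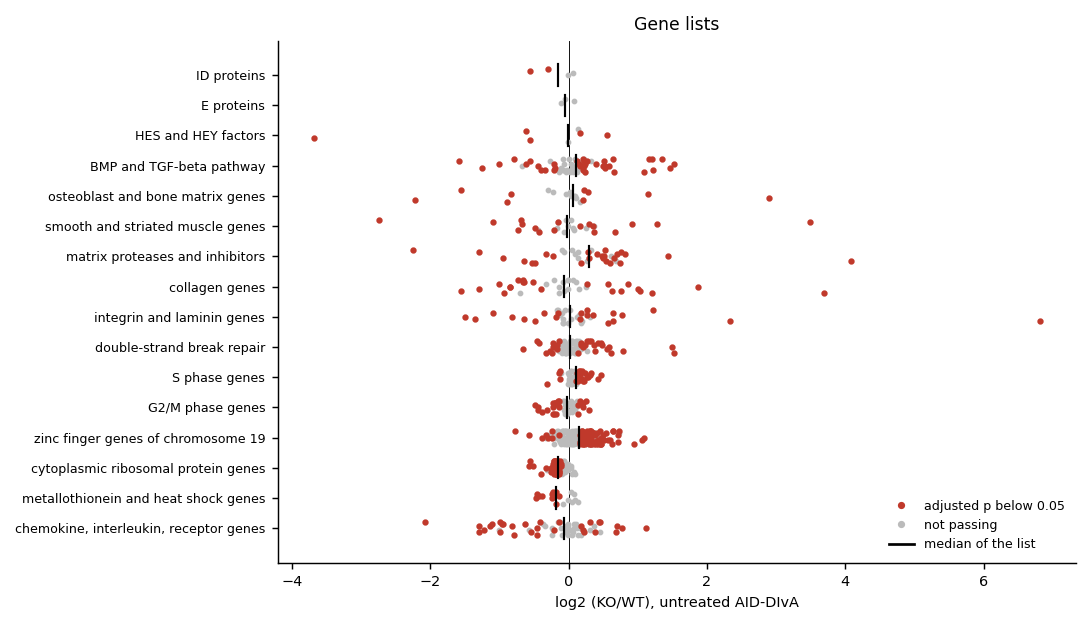
Log2 difference (KO over WT) of every tested gene of 16 lists in untreated AID-DIvA libraries; each point is a gene, red where the adjusted p was below 0.05, and the black bar is the median of the list. List medians lie between -0.18 and 0.30, ribosomal protein genes lie mostly below 0 and chromosome 19 zinc finger genes mostly above it.

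Differences that were small in each gene but shared by many appeared in a pair of large families. Cytoplasmic ribosomal protein genes fell in 44 of 78 tested and rose in none, with a median log2 difference of -0.15, and 41 of 75 fell outside the stretches. RPL31 and RPL38, with falls of 0.57 and 0.55, lie in lower stretches. In U2OS the median was -0.19 and 2 of 78 fell at an adjusted p below 0.05, and in treated AID-DIvA cells the median was 0.07. Zinc finger genes of chromosome 19, mostly KRAB repressors, rose in 79 of 212 and fell in 8, with a median of 0.15, and 64 of 196 rose outside the stretches. ZNF283 rose from 28.0, 28.5 and 35.5 CPM to 61.1, 65.5 and 66.1 CPM (log2 difference 1.06). In U2OS 36 of 209 rose and none fell, with a median of 0.22. Ribosomal protein genes have many processed pseudogenes that can take their reads.

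Genes of the metallothionein and heat shock list, which does not hold CRYAB, fell in 10 of 17 and rose in none, with a median of -0.18 (in U2OS 1 of 17 rose and 2 fell, median -0.12). HMOX1, haem oxygenase, fell by 0.47 and HSPA1B, which has a near-identical copy in HSPA1A, by 0.45. Of 23 tested imprinted genes 6 rose and 7 fell, and 3 were called lower. IGF2, the growth factor that IGFBP4 binds, fell from 107, 97.0 and 101 CPM to 37.6, 44.9 and 40.9 CPM (log2 difference -1.3, SE 0.06), and H19, its neighbour, rose by 0.60. Of 46 neuronal and synaptic genes 15 rose and 13 fell, with NCAM1 and SHANK2 higher, both in stretches of chromosome 11, and SYP (synaptophysin) and RBFOX3 (NeuN) lower by 1.17 and 1.41. Of 58 axon guidance genes 17 rose and 14 fell. Of 47 clustered protocadherins 9 rose and 10 fell, PCDHB2 by 1.38 upwards and its neighbour PCDHB3 by 0.85 downwards. Of 13 protein genes of the mitochondrial genome MT-ND1 rose by 0.50 (edgeR adjusted p = 0.0102) and no other passed.

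The called genes were set beside the same genotype contrast in untreated libraries labelled U2OS, which share no library with it. The cell line field of these names U2OS, but their library names also carry DivA, so whether those cells lack AsiSI is not settled by the labels. In U2OS, 1352 of 20621 genes rose at an adjusted p below 0.05 (6.56%) and 1780 fell (8.63%). Of the 434 genes called higher in AID-DIvA and tested in U2OS, 414 had the same sign (95.4%), 254 rose at an adjusted p below 0.05 (58.5%), and 2 fell. Of 426 genes called lower, 415 had the same sign (97.4%), 306 fell at an adjusted p below 0.05 (71.8%), and none rose. Over all 19998 genes tested in both, 73.4% had the same sign. In both sets 463 genes were called in the same direction. They are 53.8% of the 860 AID-DIvA calls tested in U2OS and 56.5% of the 819 U2OS calls tested in AID-DIvA. IGFBP4 rose by 8.61 and HOXB2 by 5.95 in U2OS, and RUNX3 fell by 3.65. ID3 itself fell by 1.03 there. U2OS WT replicate 1 stood apart, at 90.8 to 105 chi-square units per gene from the other WT replicates against 4.34 between these. Without it, 318 and 363 genes passed in place of 254 and 306. The sources used here do not state whether the KO cells of both lines came from the same editing event.

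**Figure D5:**
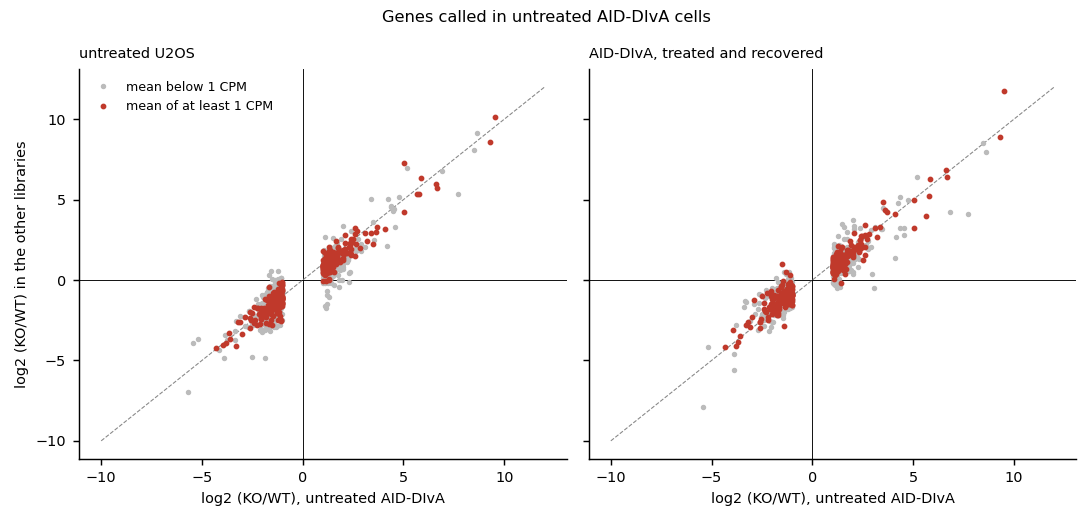
Log2 difference (KO over WT) of the genes called in untreated AID-DIvA libraries, on the horizontal axis, against the difference of the same genes in untreated U2OS libraries (left) and in treated and recovered AID-DIvA libraries (right); red points have a mean of at least 1 CPM and the dashed line marks equal differences. In U2OS 414 of 434 genes called higher and 415 of 426 called lower keep their sign.

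After mocetinostat and recovery, AID-DIvA cells kept the sign of nearly all calls. In those libraries 2537 of 20100 genes were higher in KO at an adjusted p below 0.05 (12.6%) and 2222 lower (11.1%). Of 408 genes called higher in untreated cells 398 had the same sign (97.5%) and 334 passed (81.9%), and of 410 called lower 399 had the same sign (97.3%) and 309 passed (75.4%). Over all genes tested in both, 74.1% had the same sign. Genes called in both in the same direction numbered 476. They are 58.2% of the 818 untreated calls tested in treated cells and 58.3% of the 817 treated calls tested in untreated cells.

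The genotype difference itself differed between AID-DIvA and U2OS in 215 of 21489 genes (1% at an adjusted p below 0.05, 150 more positive and 65 more negative in AID-DIvA). Among the called genes these were 27 of 465 called higher and 15 of 470 called lower. Leaving out U2OS WT replicate 1 raised the number to 1663, and leaving out U2OS KO replicate 1, 2 or 3 lowered it to 89, 98 or 90. It fell to 137, 108 and 110 without WT replicate 1, 2 or 3 of AID-DIvA and to 95 and 122 without KO replicate 1 or 2. The genes named here were picked for a small p of this test. CAV1 fell by 1.16 in AID-DIvA and stood at -0.20 in U2OS, where it did not pass (difference -0.97, edgeR adjusted p = 0.000315). DIO2, a deiodinase that activates thyroid hormone, fell by 1.69 in AID-DIvA and stood at -0.40 in U2OS, where it did not pass either (difference -1.303). LMCD1, a LIM-domain corepressor, and MEF2C fell less in AID-DIvA than in U2OS, with differences of 1.25 and 1.48. PKIB, an inhibitor of protein kinase A, rose by 1.57 in AID-DIvA and 0.53 in U2OS, and LTBP3 by 1.22 and 0.43. CTNND2, a neural catenin, rose by 2.07 in AID-DIvA and by 2.82 in U2OS.

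Between untreated and treated AID-DIvA cells, the genotype difference differed in 258 of 21265 genes (1.21%, 96 positive and 162 negative). This fit uses the untreated libraries again. Among the called genes, 23 called higher and 34 called lower were of this kind. The number moved to 122, 135 and 160 without untreated WT replicate 1, 2 or 3, to 146 and 138 without untreated KO replicate 1 or 2 and to 149 without treated KO replicate 2. MMP9 was lower in KO by 2.24 in untreated cells and by 0.81 after treatment and recovery (difference -1.42, edgeR adjusted p = 0.022), CX3CL1 by 2.07 and 0.99 (difference -1.07, edgeR adjusted p = 0.00576) and LCP1 by 2.4 and 1.46 (difference -0.94, edgeR adjusted p = 0.000727). RTL1, a retrotransposon-derived imprinted gene, was lower by 1.42 and 2.85.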

How the data were processed

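Stranded total RNA libraries of untreated WT and ID3-KO AID-DIvA cells, 3 of each, were compared. Per the labels, the authors used STAR for alignment of paired reads (hg19/GRCh37, Roddy workflow) and deposited raw counts of fragments per gene from featureCounts, from either strand and by strand, for 57820 genes, with no normalization. The versions of both tools are not given in the sources used here. Counts from either strand were used. The tests used edgeR 4.0.16 under R 4.3.3, with TMM factors, filterByExpr, a robust quasi-likelihood fit on the 6 libraries and Benjamini-Hochberg adjustment over 20441 genes. The study's methods name DESeq2, which was an alternative (1.42.0). A call needed a log2 difference beyond 1 together with an adjusted p below 0.05. In the text, "rose" and "fell" mark an adjusted p below 0.05. Standard errors are the log2 difference divided by the square root of F. CPM are counts scaled to the TMM-adjusted library size.

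The same fit was made for untreated U2OS and for treated and recovered AID-DIvA libraries, and interaction terms were fitted over 12 libraries. The 6 libraries of treated U2OS cells were not used here. Genes were named by rule: ID and E protein genes, the 12 largest changes and 6 smallest adjusted p values in each direction among called genes with a symbol, at least 1 CPM and no overlap, genes on in one genotype and off in the other, up to 2 members of each list in each direction, and the 4 smallest interaction p values in each direction. These members, lists and rules were chosen with earlier results of these data known. S and G2/M phase lists came from Seurat 5.3.0. Symbols SCX and PECAM1 were not matched. Stretches and the added alternatives were chosen after seeing the data. On simulated counts, at an adjusted p below 0.05 alone, the fit found 99.5% of the genes given a log2 change of 1.5 (20156 genes). Among the genes that passed, 6.13% were false. For the difference between lines it found 86% (21119 genes, 4.44% false). No fold threshold was used and only genes above a minimum count were changed, so these shares do not describe the called genes, many of which have low counts. Alternatives were DESeq2, other scalings, filters and thresholds, counts by strand, all 4 AID-DIvA groups in one fit, the replicate number as a block, the libraries that the treatment field calls untreated, and each library left out. A few listed genes are not reported here.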

Additional observations from a re-analysis of the deposited data

Results flagged for a closer look

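The genotype difference (KO minus WT, log2) was tested between untreated AID-DIvA and untreated U2OS libraries, and 14 named genes differed at an edgeR adjusted p below 0.05. The difference was higher in AID-DIvA by 1.25 for LMCD1, 1.07 for BHLHE41, 1.03 for PKIB, 1.48 for MEF2C, 0.77 for LTBP3, 0.87 for CRYAB, 0.59 for BHLHE40, 0.59 for COL5A1, 1.02 for OASL and 0.41 for COL3A1. It was lower in AID-DIvA for CAV1 (-0.97), DIO2 (-1.303), CTNND2 (-0.76) and IFI44 (-0.66). The adjusted p ran from 0.000191 for LMCD1 to 0.0488 for COL3A1. BHLHE40 stood at 0.17 in AID-DIvA and fell by 0.44 in U2OS.

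Between untreated and treated and recovered AID-DIvA libraries, 16 named genes differed in the same way. The genotype difference was higher in untreated cells by 1.44 for RTL1, 0.59 for PKIB, 0.56 for LTBP3, 0.53 for COL8A1 and 1.82 for the pseudogene SNX18P24. It was lower in untreated cells for LCP1 (-0.94), CTNND2 (-0.87), CAV1 (-0.72), SYP (-0.76), CX3CL1 (-1.07), SERPINA1 (-0.82), RUNX2 (-0.53), ITGAM (-1.19), CDK4 (-0.32), MMP9 (-1.42) and RBFOX3 (-0.57). The adjusted p ran from 0.000727 for LCP1 to 0.0497 for RBFOX3.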

How the results depend on the processing

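The number of called genes stayed within 1.5 times of 465 higher and 471 lower under DESeq2 (418 and 434), other scalings (444 to 467 and 470 to 505), no filter on low counts (620 and 615), counts by strand (424 and 475), all 4 AID-DIvA groups in one fit (505 and 514), a test against a fold of 1.5 (465 and 451, of which 330 and 328 were the same genes) and without the genes of the stretches (380 and 430). It was 280 and 279 when at least 10 counts were asked of every library, which left 18627 genes, and 3793 and 3709 with no fold threshold. Leaving out each library gave 461 to 496 and 475 to 552, both highest without KO replicate 3. On the second principal component (7.59% of the variance) that library stood at -12.6, against 5.04 and 7.67 for KO replicates 1 and 2. The libraries that the treatment field calls untreated gave 503 and 454, sharing 260 and 216 genes. With the replicate number as a block the numbers were 468 and 488, and same-numbered KO and WT libraries deviated with correlations of 0.144, -0.12 and -0.0254, so the numbers do not pair the libraries and not every library correlated best with its own number. Genes whose genotype difference differed between AID-DIvA and U2OS numbered 492 with DESeq2, 69 with a replicate block and 89 to 1663 with a library left out, against 215. Between untreated and treated AID-DIvA cells they numbered 466, 66 and 122 to 297, against 258. The cause of these moves was not tested.

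Of 2275 values of named genes under an alternative, 2139 kept direction and side of the threshold, 121 fell short of it, 5 newly passed it and 10 changed sign. With a library left out, ID1 ran from -0.0399 to 0.136, ID4 from -0.065 to 0.0828 (0.0076 without KO replicate 2) and TCF3 from -0.149 to 0.0154. In the libraries that the treatment field calls untreated TCF3 was 0.13, BHLHE40 -0.13, MMP3 -0.17, HDAC3 0.016, CDK4 0.16 and ZNF296 0.15. Of 450 stretch medians 384 moved by less than the spread between replicates, and none changed sign. In the stretches of chromosomes 11 and X that hold CADM1 and SRPX, standard errors were larger for genes near 1 CPM, such as GAPDHP1 and KBTBD3, than for abundant genes, such as PRCP and ZW10. Genes below 1 CPM rest on few counts. How far counting error and the spread between replicates each limit the precision was not tested.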
